A study of Rattus norvegicus with 9 samples.

Results

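The chips used to profile microRNAs (miRNAs) in rat soleus carried, beside probes for named rat miRNAs, a set of 96 probes for predicted rat miRNAs, that is, for sequences proposed as miRNAs but without a miRNA name on the chip. They were taken as all experimental probes whose name does not start with rno-, which gave 96 of the 334 miRNA probes (87 names begin with MM_ and 9 with Mmj_), each printed as 9 repeat spots. The study measured the soleus, a postural muscle of the lower hindlimb, in male Sprague-Dawley rats aged 6 months. The groups were hindlimbs suspended for 2 days (3 arrays), hindlimbs suspended for 7 days (3 arrays) and controls (3 arrays). Suspension was done with a tail device that kept the hindlimbs off the cage, under free access to food and water in all groups. Per the labels, the device was attached under pentobarbital anaesthesia, and whether controls were anaesthetised is not given. The labels do not state whether each array came from its own animal. The p-values below therefore describe variation among these samples, which may be technical.

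MiRNAs are short RNAs cut from the arms of hairpin precursors. They guide a silencing complex to messenger RNAs, mainly through the seed, bases 2 to 8 of the mature strand. In striated muscle a few miRNAs (miR-1, miR-133, miR-206, miR-499) are known to be abundant. Prediction programs propose many further hairpins from sequence alone. Finding the mature strand in RNA is a usual ground for accepting a proposed hairpin as a miRNA gene. A hybridisation signal can come from RNA able to pair with the probe, and it does not show that such RNA was cut from a hairpin.

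The targets of the 11 predicted probes that had enough signal to be tested are shown first, because the comparisons rest on them. They are written 5′ to 3′ as in the scanner files, with bases 2 to 8 in capitals.
MM_264: gACCCAGAggcgugggcacaaa
MM_79: cUGCUGUGggugagcgggaagc
MM_105: uUCCUCAGgcuauaaaaaaaug
MM_234: gCUCUGUCccggccccagcccc
MM_302: aGGCCUUCauccuuaaccuccc
Mmj_10: cCAGCUCAcccaggaaauccc
MM_240: gCUGGGGUcugagccagcagca
MM_103: gUAGCAGCgucggcggucccuc
Mmj_4: gUCGAUUCcgcacgcagagcaauc
Mmj_156: uUCUGACUccaaguccagu
MM_89: cGUCCCAGaggaggccaaacac
The 11 seeds differed from each other, and none was the seed of a named rat probe on the chip or of any of the 724 mature rat miRNAs of RefSeq. The closest named target on the chip was 5 edits away for Mmj_156 (miR-345) and at least 8 edits away for the other 10.

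Of the 96 predicted probes, 6 matched 1 of the 419 rat hairpins of RefSeq (build GRCr8) with at most 2 edits over their full length. Only Mmj_156 lay on the strand of the hairpin. Its 19 bases lie at chr18:57128927-57128945 (+ strand) in the hairpin Mir3557 and equal all but the first bases of the mature strand rno-miR-3557-5p, which is shown with the shared stretch in capitals.
rno-miR-3557-5p: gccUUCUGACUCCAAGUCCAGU
The other 5 were complementary to the hairpin, so that their targets would come from the opposite strand of the annotated miRNA gene. MM_159 (chr2:213077281-213077301, + strand) was an exact complement of the stretch of Mir760 that holds rno-miR-760-3p. Mmj_157-1 (chrX:137725899-137725921, + strand) was an exact complement of the 5′ arm of Mir503, and Mmj_157-2 (chrX:137725859-137725881, + strand) differed from the complement of its 3′ arm by 1 edit. MM_234 (chr1:191754388-191754409, - strand) differed by 1 edit from the complement of Mir762, and MM_296 (chrX:69504650-69504670, - strand) by 2 edits from that of Mir676. The hairpin of miR-503 is shown, because both of its arms were represented, with the stretches that the 2 Mmj_157 probes complement in capitals.
Mir503: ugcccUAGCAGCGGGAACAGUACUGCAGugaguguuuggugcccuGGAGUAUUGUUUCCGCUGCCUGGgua
Neither Mmj_157 probe was detected on any array, while the named probe for miR-503 itself was detected on all 9 arrays, at 1.39 to 2.61 times the limit. The predicted sense target Mmj_156 was detected on 4 arrays, the antisense targets MM_159, MM_234 and MM_296 on 1, 8 and 0 arrays. A search of 33469 windows of 300 bases around RefSeq gene starts found 1 exact match, MM_123, at chr3:90141291-90141312 (- strand) by the start of Ctnnd1, the gene of a catenin of cell contacts, on the strand of the gene. MM_123 was detected on no array.

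The 96 probes held 92 distinct targets, since 3 targets were printed under more than 1 name: 1 under MM_12, MM_38 and MM_265, another under MM_263 and MM_270 and the last under Mmj_215 and Mmj_226. All 7 of these probes were undetected on every array. Copies differed at most 1.10-fold, 1.04-fold and 1.38-fold in mean brightness on any array. The last was on 7-day array 3, where Mmj_215 averaged 48.4 with an SD of 44.6 over its spots and 1 of 9 spots above the limit.

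Each array had its own detection limit, the 95th percentile of its 614 empty spots, and a probe counted as detected there if a share above 0.5 of its 9 spots exceeded that limit. This limit was 33.7, 73.3 and 54.1 units of scanner brightness on 2-day arrays 1, 2 and 3, 32.5, 32.0 and 38.4 on the 7-day arrays, and 43.0, 53.6 and 31.6 on the control arrays. Over all tested probes, log2 values after quantile normalisation correlated at 0.987 on average within groups and at 0.986 between groups. These correlations run over probes from dim to very bright, so they say little about how dim probes compare between arrays. The striated muscle markers miR-499, miR-206, miR-133b, miR-133a and miR-1 were detected on all 9 arrays, at 238 times the limit or more. The remaining striated muscle marker, miR-208, known from the heart, was detected on 5 arrays and lay at 0.67 to 1.74 times the limit. The blood markers miR-451 and miR-223 were also detected on all 9 arrays, at 7.19 to 28.5 and 11.5 to 66.9 times the limit. So was the endothelial marker miR-126, at 223 to 620 times the limit. The brain markers miR-124a and miR-9 and the liver marker miR-122a were detected on 3, 1 and 1 arrays. Among the dim predicted probes, 2-day array 1 stood apart: 94 of the 96 had their lowest brightness there, and 65 had their highest on 2-day array 2. The median of the empty spots was 27.4 on 2-day array 1, the lowest of the 9, and 53.3 on 2-day array 2, the highest.

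Most predicted miRNAs gave no signal above the empty spots in soleus. On no array were 76 of the 96 probes detected, 20 were detected on at least 1 array, and 2, MM_264 and MM_79, on every array. The 76 undetected probes had a mean brightness of 0.73 to 1.83 times the empty-spot median of their array, with a median of 0.97. The 1.83 was MM_238 on 7-day array 2, where 1 of its 9 spots exceeded the limit and its spots had an SD of 76.1. By class, 2.08% of the predicted probes were detected on all 9 arrays, against 59.2% of the 238 named rat probes, and 79.2% were detected on none, against 16.8% of the named ones.

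By array, 2.08%, 13.5% and 15.6% of the predicted probes were detected after 2 days, 14.6%, 11.5% and 17.7% after 7 days, and 10.4%, 10.4% and 7.29% in controls. Of the named probes, 61.8%, 61.8% and 68.5% were detected after 2 days, 79.8%, 75.2% and 71.4% after 7 days, and 68.1%, 61.8% and 74.4% in controls. The difference was -57.7 ± 6.66 percentage points (mean ± SD over 9 arrays), below 0 on 9 of 9 arrays, and an exact two-sided permutation test by sign flips over the arrays gave p = 0.0039, the smallest it can give. The arrays share the same probes, so this test speaks for the arrays and not for other choices of probes.

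The number of predicted probes detected was 2, 13 and 15 on the 2-day arrays, 14, 11 and 17 on the 7-day arrays and 10, 10 and 7 on the control arrays. The 7-day arrays all lay above the controls, and the 2-day arrays lay on both sides of them. Named probes were detected in numbers of 147, 147 and 163 on the 2-day arrays, 190, 179 and 170 on the 7-day arrays and 162, 147 and 177 on the control arrays, so that 2 of the 3 seven-day arrays lay above all controls for these as well. The mean was 10.0 ± 7.0 after 2 days against 9.0 ± 1.73 in controls (SD, n = 3 arrays each; exact two-sided permutation p = 1). After 7 days it was 14.0 ± 3.0, against 9.0 ± 1.73 in controls (exact permutation p = 0.1; adjusted for the 3 comparisons by Benjamini-Hochberg, 0.3). No p below 0.1 can be reached with 3 arrays against 3. Between 7 and 2 days the exact permutation p was 0.6. Without 2-day array 1 the 2-day mean exceeded the control mean by 5 probes (exact permutation p = 0.1) in place of 1, and the 7-day and 2-day means were equal. When the limit was raised to the 99th percentile, the 7-day mean exceeded the control mean by 3 probes (exact permutation p = 0.4). The limit itself was 32.0 to 38.4 on the 7-day arrays and 31.6 to 53.6 on the controls. Its part in the higher count was not tested.

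The probes with signal were rich in G and C. The 20 probes detected on at least 1 array had a median of 63.6% G and C in their target, and the 76 detected on none had 50.0%. Of the 28 targets with at least 60% G and C, 14 were detected, against 4 of 37 with 50% to below 60%, 1 of 20 with 40% to below 50% and 1 of 11 below 40%. MM_234, an antisense match to Mir762, had 81.8%, the highest of the 96, and was detected on 8 arrays. The single detected target below 40% was MM_105, with 31.8% and a run of 7 A bases near its 3′ end, shown here in capitals.
MM_105: uuccucaggcuauAAAAAAAug
No other predicted target held an A run longer than 5.

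The 11 tested probes all entered through the 7-day arrays: each was detected on all 3 of these, 2 of them on all 3 two-day arrays and 5 on all 3 controls. Entry to the test required detection throughout at least 1 group, so the 11 are not a sample of all 96, and counts over them describe the tested probes only. In all, 178 probes were tested, 167 of them named.

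MM_264 was detected on all 9 arrays and was the tested predicted probe whose suspended groups both lay apart from controls. Its mean brightness was 398, 746 and 717 on 2-day arrays 1 to 3, 472, 791 and 668 on the 7-day arrays, and 281, 320 and 302 on the control arrays, which is 5.97 to 24.7 times the limit of the array. Every suspended array lay above every control array, also on 2-day array 1, where 94 of the 96 predicted probes had their lowest value. It had no match within 2 edits among the RefSeq rat hairpins.

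After normalisation MM_264 averaged 9.30 ± 0.03 log2 units after 2 days and 8.53 ± 0.28 in controls (SD, n = 3 arrays each), a difference of 0.77 ± 0.21 (SE; 95% interval 0.28 to 1.25), or 1.70-fold. Limma gave an unadjusted p of 0.00707 and an adjusted p of 0.252 over the 178 tested probes, so the difference did not pass the threshold of 0.05. After 7 days it averaged 9.15 ± 0.40, against 8.53 ± 0.28 in controls, a log2 fold change of 0.62 ± 0.21 (0.13 to 1.10), or 1.53-fold, with a limma unadjusted p of 0.0201 and an adjusted p of 0.266. Between 7 and 2 days the log2 fold change was -0.15 ± 0.21 (-0.64 to 0.34; limma adjusted p = 0.948). Both contrasts against control use the same 3 control arrays. The adjusted p ran from 0.0908 to 0.823 over 25 alternatives at 2 days and from 0.0684 to 0.635 at 7 days, and the log2 fold change stayed above 0 in all of them, at 0.63 to 0.94 and 0.38 to 1.02. The lowest 7-day value, 0.38, came without 7-day array 2, and without control array 1 it was 0.47. In the authors' deposited table, whose scale is not stated, MM_264 had 540, 665 and 608 after 2 days, 404, 637 and 455 after 7 days, and 283, 333 and 340 in controls.

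None of the 11 predicted probes passed the threshold in any comparison, beside 0.562% of all 178 tested probes at 2 days against control, 0% at 7 days against control and 0% at 7 against 2 days (limma adjusted p under 0.05). At an unadjusted p under 0.05, 1 of the 11 passed at 2 days, beside 6.74% of all tested probes (3.93% higher), 1 at 7 days, beside 14% (7.3% higher), and 0 between 7 and 2 days, beside 5.62%, all of them higher. In both cases it was MM_264, which was higher. By non-overlapping groups of normalised values, 2 of the 11 were separate at 2 days (MM_264 higher, Mmj_156 lower), beside 7.87% of all tested probes (2.25% higher and 5.62% lower). Mmj_156 was detected on no 2-day array and 1 control array, and its brightness before normalisation overlapped between these groups. Its separation therefore lies near background. At 7 days 1 was separate (MM_264 higher), beside 23.6% (11.2% higher and 12.4% lower), and between 7 and 2 days 0 were, beside 6.18% (5.06% higher and 1.12% lower).

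The 11 had higher values than controls in 6 cases at 2 days and in 5 at 7 days, with medians of 0.05 and -0.03 log2 units, and in 5 cases at 7 against 2 days, with a median of -0.11. Over all 178 tested probes 71, 74 and 100 were higher in these comparisons, with medians of -0.05, -0.03 and 0.02. The counts and medians of the 11 include 6 fitted differences (of Mmj_4, Mmj_156 and MM_89) against a group with no detected array. The median standard error of a fold change was 0.364 over the 11 and 0.166 over all tested probes.

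Mmj_4 stood out on single arrays. Its brightness was 27.0, 68.0 and 51.7 after 2 days, where it was not above the limit on any array, 33.7, 73.5 and 49.0 after 7 days, and 186, 84.4 and 29.7 in controls. Control array 1 held its highest value, at 4.34 times the limit, while control array 3 was below the limit, so the groups overlapped. With the 2-day arrays set to no less than their lowest detected signal, the mean of the 3 control arrays was 1.53-fold above them. This is not a lower bound on a group difference, since control array 3 was itself below the limit. The log2 means were 5.96 after 2 days and 6.75 in controls (limma adjusted p = 0.873). The difference rests on control array 1: the fitted log2 value was -0.79 (95% interval -1.77 to 0.19) with it and -0.31 without it. With the 2-day arrays set in the same way, the mean of the 7-day arrays was 1.11-fold above them. That value is no lower bound either, since Mmj_4 entered the test only through its detection on all 7-day arrays. The 7-day and 2-day groups overlapped, and the fitted log2 value was 0.32 (95% interval -0.66 to 1.30, limma adjusted p = 0.948). The 7-day log2 fold change against control stood at -0.47 ± 0.42 (limma adjusted p = 0.846), and it was 0.01 without control array 1.

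Mmj_156, the probe whose target lies within miR-3557-5p, stayed near the limit. Its brightness was 26.5, 55.8 and 48.0 after 2 days, 33.4, 36.1 and 54.4 after 7 days, and 42.9, 42.0 and 32.1 in controls. It was detected on no 2-day array, all 3 seven-day arrays and 1 control array, and reached at most 1.42 times the limit. At 7 days against control its log2 fold change was 0.08 ± 0.09 (95% interval -0.13 to 0.29; limma adjusted p = 0.902). Over 21 alternatives it ran from -0.34 to 0.79. The sign was opposite in 2 of them, at -0.26 with median centring and -0.34 with centring on the 75th percentile. No fold could be bounded against the 2-day arrays, where it was not above the limit on any array.

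MM_234 and Mmj_10 were brightest where the empty spots were. MM_234 had 30.8, 266 and 132 units of brightness after 2 days, 38.8, 41.1 and 85.9 after 7 days, and 47.7, 101 and 33.3 in controls. Mmj_10 had 27.4, 210 and 120 after 2 days, 35.7, 36.0 and 79.4 after 7 days, and 42.6, 89.8 and 31.4 in controls. Both were brightest on 2-day arrays 2 and 3 and control array 2, the 3 arrays with the highest empty-spot medians (53.3, 46.4 and 40.6), and dimmest on 2-day array 1. The same 3 arrays were the brightest for 4 of the 11 tested predicted probes, MM_103 and MM_89 being the others. They were the brightest for 10 of the 20 detected predicted probes and 71 of the 76 undetected ones. Among named probes they were the brightest for 12 of the 167 in the test and 37 of the 40 detected on no array. Undetected probes lie near the level of the empty spots through the detection rule. Their counts therefore say nothing on the source of the signal of MM_234 and Mmj_10. On 2-day array 2 MM_234 stood at 3.63 times the limit and Mmj_10 at 2.86 times. The part of the array's background in these values was not tested.

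On the log2 scale MM_234 stood at 0.55 ± 0.44 at 2 days (95% interval -0.46 to 1.57; limma adjusted p = 0.913) and at -0.06 ± 0.44 at 7 days (-1.08 to 0.95; adjusted p = 0.988). Mmj_10 stood at 0.44 ± 0.39 and -0.04 ± 0.39 (adjusted p = 0.921 and 0.992). For both, the SD within the 2-day group (0.90 and 0.79) exceeded that within the 7-day group (0.22 and 0.24) and that in controls (0.49 and 0.44). Without 2-day array 1 the 2-day values were 1.02 and 0.89, and without 2-day array 2 they were 0.10 and 0.08.

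MM_79, the other probe detected on all 9 arrays, showed no difference between groups beyond their spread. Its brightness was 56.7, 450 and 223 after 2 days, 157, 204 and 179 after 7 days, and 271, 213 and 129 in controls. The groups overlapped, and the 2-day arrays alone held both the lowest and the highest of the 9 values. On the log2 scale it stood at -0.27 ± 0.36 at 2 days (95% interval -1.12 to 0.57; limma adjusted p = 0.974) and at -0.39 ± 0.36 at 7 days (-1.24 to 0.45; adjusted p = 0.854). Without 2-day array 1 the 2-day value was 0.12.

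MM_105 was the least stable of all tested probes. Its brightness was 36.0, 1018 and 159 on the 2-day arrays, 1695, 494 and 243 on the 7-day arrays, and 859, 146 and 103 on the control arrays. The brightest array of each group lay well above its other arrays and all groups overlapped. It was detected on 8 arrays, at up to 52.2 times the limit, and was not detected on 2-day array 1, where 4 of its 9 spots exceeded the limit. Its SD within groups, 1.54 log2 units, ranked 1 of 178, and the log2 fold changes of -0.43 ± 1.10 at 2 days and 0.83 ± 1.10 at 7 days had 95% intervals of -2.99 to 2.13 and -1.73 to 3.39 (limma adjusted p = 0.977 and 0.925). The 7-day value was 0.096 without 7-day array 1 and 1.64 without control array 1, and the 2-day value was 0.37 without control array 1.

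The rows of the chip fall into 3 blocks, each with 3 repeat spots of a probe, and on some arrays the blocks of MM_105 differed. On 7-day array 1 the 3 spots in the first block of rows averaged 2603, those in the middle block 1785 and those in the last block 698, a ratio of 3.73, while the median ratio over the 178 tested probes on that array was 1.14. On 7-day array 3 the order was opposite, with 170, 211 and 347. Both ratios were the highest of all tested probes on their array. On MM_264 the ratio of the brightest to the dimmest block was at most 1.27 on any array. The part of position on the chip in the values of MM_105 was not tested.

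MM_302, detected on 8 arrays, had overlapping groups. Its brightness was 31.6, 214 and 153 after 2 days, 44.4, 133 and 96.5 after 7 days, and 49.8, 109 and 37.9 in controls. On 7-day array 2, 1 of its 9 spots read 757 and the others 48.2 to 64.3, so that the median spot was 55.4 where the mean was 133. With medians of the repeat spots the log2 fold change at 7 days was 0.0009, against 0.12 ± 0.39 with means (limma adjusted p = 0.95). It was -0.15 with median centring and ran from -0.23 to 0.47 over 24 alternatives. At 2 days it was 0.42 ± 0.39 (adjusted p = 0.937), and it was 0.11 without 2-day array 2 and 0.86 without 2-day array 1.

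The remaining 3 tested probes lay close to the limit, at no more than 1.70 times it on any array. MM_240, detected on 7 arrays, had a brightness of 28.5, 96.5 and 55.6 after 2 days, 34.7, 51.1 and 59.6 after 7 days, and 73.2, 61.7 and 31.2 in controls. Its groups overlapped, and its log2 fold change was -0.19 ± 0.20 at 2 days and -0.08 ± 0.20 at 7 days (limma adjusted p = 0.974 and 0.95). MM_103, detected on 6 arrays, had 28.1, 95.8 and 67.3 after 2 days, 33.2, 36.3 and 42.4 after 7 days, and 36.0, 61.0 and 30.7 in controls. Its groups overlapped as well, with 0.08 ± 0.15 at 2 days and -0.03 ± 0.15 at 7 days on the log2 scale (limma adjusted p = 0.974 and 0.965). MM_89, detected on 1 two-day, 3 seven-day and 0 control arrays, had 28.6, 74.5 and 55.4 after 2 days, 36.7, 34.3 and 38.4 after 7 days, and 36.6, 44.9 and 31.4 in controls. It reached at most 1.13 times the limit, its groups overlapped, and no fold could be bounded against controls, where it was not above the limit on any array.

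A further 9 predicted probes were detected on some arrays but not on all arrays of any group. MM_229 and MM_239 were detected on 5 arrays, MM_13, MM_215 and MM_295 on 3, MM_204 on 2, and MM_129, MM_159 and MM_260 on 1. MM_229 reached the highest signal among them, 196 units or 2.67 times the limit on 2-day array 2. MM_13, MM_215 and MM_295 were each detected on 2-day arrays 2 and 3 and 7-day array 3 and nowhere else.

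As a description of stability, the median SD within groups was 0.501 log2 units over the 11 and 0.215 over all 178 tested probes. MM_105, MM_234, Mmj_4, Mmj_10, MM_302 and MM_79 ranked 1, 10, 11, 13, 15 and 19 of 178, from the most variable. MM_264 ranked 60, with an SD of 0.282. Mmj_156 and MM_89, at the limit, had SDs of 0.090 and 0.089, and an offset of 50 compresses log2 differences near background by construction. Within an array the median standard error of the mean over 9 spots was 0.027 log2 units for the 11 and 0.037 for all tested probes. The same offset compresses these errors for dim probes. MM_105 had a median of 0.121, and the SD of its spots was 49.4% of their mean on 7-day array 1. For MM_302 on 7-day array 2 it was 176%.

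The authors' deposited table of values held 11 predicted probes among its 162 rows. Of these, 8 were among the 11 tested here, and MM_13, MM_229 and MM_239 were not. MM_89, MM_103 and Mmj_156 were tested here and not in that table. Of the 99 values it gives for its predicted probes, 22 stood at its lowest value, 1.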

How the data were processed

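Total RNA of soleus was size-fractionated, tailed with poly(A), tagged with Cy5 and hybridised to 1-colour chips, per the labels' protocols. The scanner files hold a brightness per spot, and no source used here gives the image software or any earlier background step. The series value table holds the authors' processed intensity values, with scale and background steps not stated (column medians 306 to 403.5); it served as an alternative. The scanner files name 238 rat miRNA probes, the labels 234. Control spots were left out after normexp (offset 50, fitted on 3968 spots an array). Log2 values were quantile normalised, and 9 repeat spots averaged. Tests covered the 178 of 334 probes detected throughout at least 1 group. Limma 3.58.1 (R 4.3.3; lmFit and eBayes, Benjamini-Hochberg over 178, threshold 0.05) was fitted to all 9 arrays and tested on simulated data. Python 3.11.15 and edlib 1.3.9.post1 compared targets with RefSeq tables (build GRCr8). Replicate numbers in the labels were not used to pair the samples in the main fit. Every tested predicted probe was named, those with the smallest p first, then those detected on some arrays. The members and lists were chosen with earlier results of these data known. The number of arrays limits the precision. Alternatives covered background, normalisation, filter, spot averaging, array weights and single arrays left out. Blocks of chip rows, base composition and shared bright arrays were looked at after seeing the values.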

Additional observations from a re-analysis of the deposited data

How the results depend on the processing

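No predicted probe passed the threshold under any alternative, and of 765 alternative fold changes 714 kept their direction and 51 took the opposite sign, 28 of these without leaving out an array. The cause was not tested. For Mmj_4 and Mmj_156 in comparisons with 2 days, and for MM_89 in comparisons with controls, 1 group had no array with the probe detected. Their values below are therefore fitted differences near background and not folds. The size of the log2 values moved too. Over all alternatives, those for 2 days minus control ran from -1.62 to 0.011 for MM_240 and from -2.90 to -0.31 for Mmj_4. For 7 minus 2 days they ran from -0.24 to 1.87 for Mmj_156 and from 0.52 to 3.48 for MM_105. Values that took the opposite sign follow, by setting. With the empty-spot median subtracted the values were, for 7 days minus control Mmj_10 0.30, MM_234 0.16, MM_103 0.12. With median centring the values were, for 7 days minus control MM_302 -0.15, Mmj_156 -0.26, MM_89 -0.33, and for 7 minus 2 days Mmj_156 -0.070, MM_89 -0.35, MM_240 -0.20. With 75th percentile centring the values were, for 7 days minus control MM_302 -0.23, Mmj_156 -0.34, MM_89 -0.41, and for 7 minus 2 days Mmj_4 -0.15, Mmj_156 -0.24, MM_89 -0.52, MM_240 -0.38. With cyclic loess the values were, for 7 days minus control MM_89 -0.0080, and for 7 minus 2 days MM_89 -0.14. With no normalization between arrays the values were, for 2 days minus control Mmj_156 0.028, MM_240 0.011, and for 7 days minus control MM_89 -0.032, and for 7 minus 2 days MM_264 0.072, MM_89 -0.27, MM_240 -0.12. With array weights the values were, for 2 days minus control MM_79 0.012, MM_105 0.36, and for 7 days minus control MM_240 0.0020, and for 7 minus 2 days MM_89 -0.016. When 1 array at a time was left out, log2 ranges that crossed 0 were, for 2 days minus control, MM_105 -1.44 to 0.37, MM_79 -0.69 to 0.12, MM_89 -0.020 to 0.11, MM_103 -0.041 to 0.22. They were, for 7 days minus control, Mmj_4 -0.92 to 0.011, MM_302 -0.045 to 0.41, MM_240 -0.26 to 0.081, Mmj_10 -0.19 to 0.21, MM_234 -0.22 to 0.21, MM_103 -0.11 to 0.097. They were, for 7 minus 2 days, MM_89 -0.051 to 0.068, MM_79 -0.51 to 0.29, MM_302 -0.72 to 0.010, MM_103 -0.25 to 0.0085. The number of predicted probes detected on every array was 1 when the limit was raised to the 99th percentile, and 2 to 5 when 1 array was left out, with 5 without 2-day array 1. The difference in predicted probes detected per array ran from -1.5 to 5 for 2 days minus control and, for 7 minus 2 days, from 0 to 6.5 when 1 array was left out. Same-numbered arrays correlated at -0.40 to 0.35 in their deviations, and 3 of 9 correlated best with their own number. With 3 arrays in a group this cannot tell whether arrays of the same number are paired. With the replicate block 0 predicted probes were called, and MM_264 had a limma adjusted p of 0.249 at 2 days and 0.378 at 7 days. The authors' table with a pseudocount of 50 was added after seeing the data. Most predicted probes lay at or near the empty spots, where signal over background limits what fold changes can show.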
